A study of Mus musculus with 47 samples.

Results

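Transcript levels of 8 genes of lipid and lipoprotein uptake were followed across cultured mouse microglia of 5 Apoe genotypes, with and without a myelin challenge. The genes were Lpl, Cd36, Msr1, Scarb1, Lrp1, Vldlr, Olr1 and Marco, taken by symbol from the 53697 genes of the deposited table. Microglia, the resident macrophages of the brain, were grown from the forebrain of C57BL/6 mice. The genotypes were WT, with the unaltered mouse Apoe gene, E3 and E4, in which both copies of mouse Apoe were replaced by the human ε3 or ε4 form, and Het and KO, with 1 or both copies of Apoe disrupted. Each genotype was left untreated for 24 h or given myelin for 3 h and collected 21 h later. All cultures were kept in the same serum-containing medium. The 47 libraries fell into 10 groups of 4 or 5, namely 4 and 4 for E3, 5 and 4 for Het, and 5 and 5 for each of the others. WT, E3 and E4 came from separate stocks, and Het and KO shared a further stock, so a difference between genotypes cannot be told apart from one between stocks, except between Het and KO. The labels do not state the age of the animals, whether animals were pooled, or whether replicates were separate cultures, so p-values measure the spread between libraries, which may be technical.

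Lipoprotein lipase, the product of Lpl, is a secreted enzyme that releases fatty acids from the triglycerides of lipoproteins, and in the brain it is made by microglia and other cells. Scavenger receptors are surface proteins that bind modified lipoproteins, apoptotic debris and myelin, and macrophages use them to take up lipid. The receptors of the LDL receptor family bind lipoproteins through apolipoproteins, apolipoprotein E among them, and carry them into the cell.

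Values are given as scaled TPM. These are the deposited TPM, a transcript abundance per unit of length. They were brought to a sum of 1000000 over the nuclear protein-coding genes of each library and then divided by a trimmed-mean factor. The factor keeps the typical gene level across libraries. The coding share of the deposited TPM was 0.468% to 27.3%, and the non-coding gene Gm23935 alone took 69.4% to 99.0%. The 4 Het libraries with a coding share under 6%, which were untreated replicates 3 and 5 and myelin replicates 1 and 2, were left out of the fit, where the lowest share was 7.16%. Het values in every test below therefore rest on 3 untreated and 2 myelin libraries, and their other values are given as descriptions. Apoe, the targeted gene, was at 44431 to 80631 scaled TPM in WT, 16269 to 81404 in Het, 63.2 to 81.7 in KO and 86.6 to 740 in E3 and E4, where only the mouse sequence is counted. All 10 microglia markers were measured at testable levels, with Tmem119 at group means of 20.2 to 55.9 and P2ry12, a marker of resting microglia, at 2.35 to 7.24. Group means of the border macrophage markers Cd163 and Lyve1 were below 1 throughout, while Pf4 was at 274 to 820. In bulk libraries such as these, fewer cells of a type and less RNA per cell cannot be told apart.

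Lpl was the most abundant of the 8 transcripts in every group, and it was also among the abundant transcripts of the cells, at the percentile 98.1 of the 10952 tested genes in untreated WT. Msr1, Cd36 and Lrp1 followed at percentiles of 95.5, 94.9 and 91.9, and they exchanged the places after Lpl from group to group. Scarb1 at 77.3 and Marco at 62.4 were lower, and Marco stood above Scarb1 in the Het groups alone. Vldlr and Olr1 were last in all 10 groups. Over all 47 libraries the ratio of the highest to the lowest value was 17.3 for Marco, 9.77 for Cd36, 7.01 for Lpl, 3.51 for Msr1, 3.44 for Scarb1 and 2.25 for Lrp1. Vldlr ranged from 0.235 to 3.30 scaled TPM and Olr1 from 0.0848 to 5.51, so that 6 of the 8 genes passed the minimum of 5 scaled TPM in at least 4 libraries and could be tested.

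**Figure D1:**
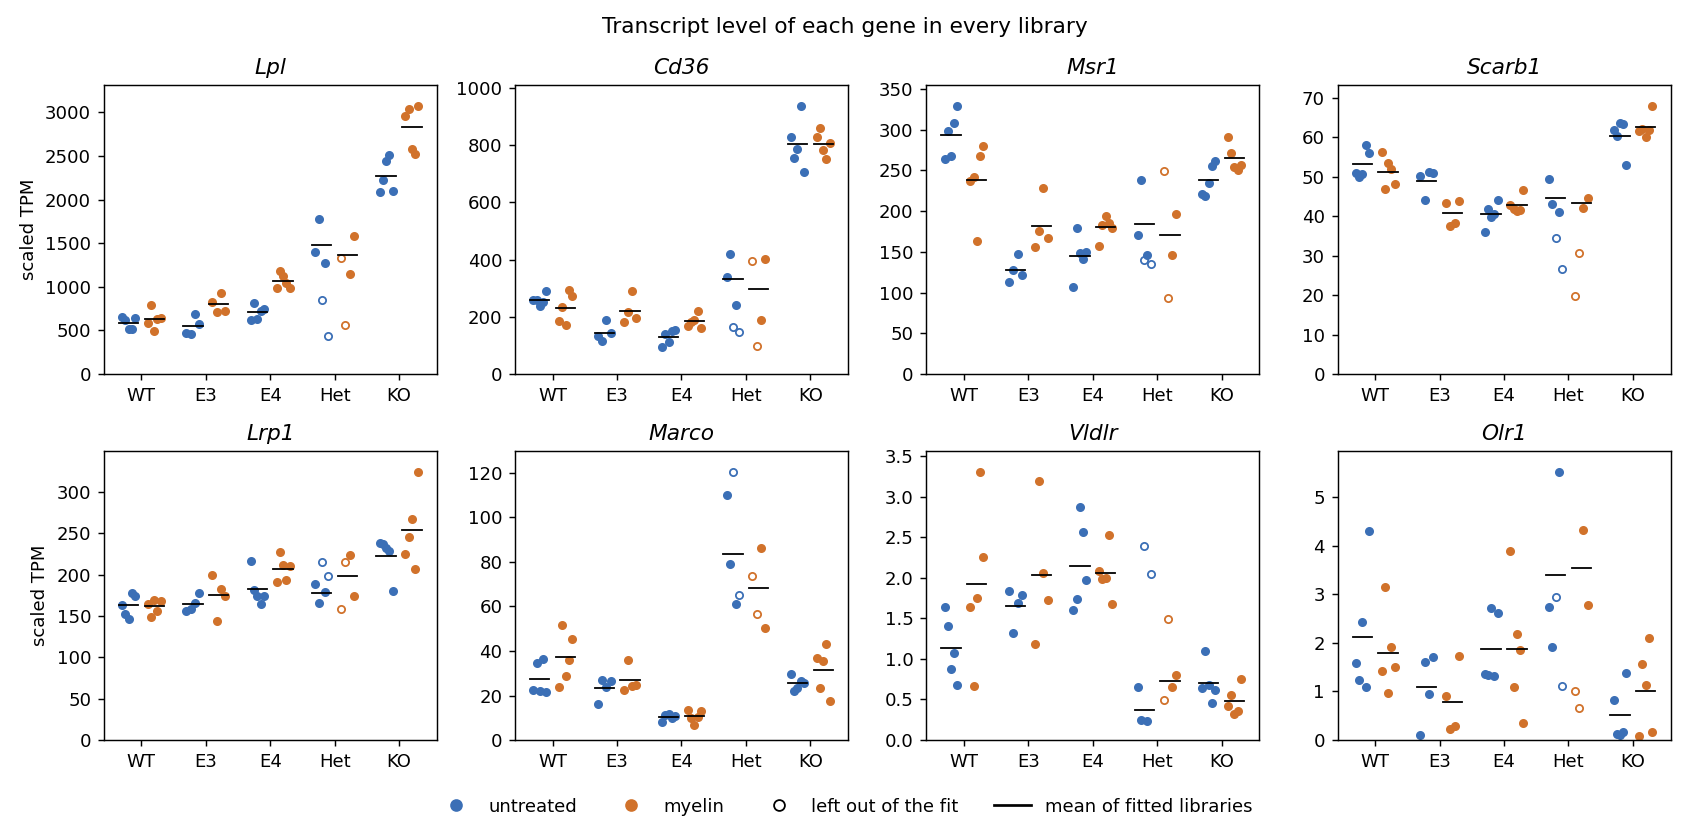
Scaled TPM (vertical axis, linear from 0 and set for each gene) of each of the 8 genes in each of the 47 libraries, by genotype and treatment on the horizontal axis. Filled points entered the fit, open points are the 4 Het libraries left out of it, and the bar is the mean of the fitted libraries. Lpl and Cd36 stand highest in KO, Marco stands highest in Het and lowest in E4, and the highest libraries of Vldlr and Olr1 are at 3.30 and 5.51.

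In mm10 the genes lie on 6 chromosomes. Lpl is at chr8:68880491-68907448 on the plus strand and Msr1 on the same chromosome at chr8:39581685-39642673 on the minus strand. Cd36 at chr5:17781690-17888801 and Scarb1 at chr5:125277087-125341094 are both on the minus strand of chromosome 5. Lrp1 is at chr10:127538161-127621148 (minus), Vldlr at chr19:27216484-27254231 (plus), Olr1 at chr6:129485244-129507165 (minus) and Marco at chr1:120474538-120505024 (minus). An annotated antisense gene, Gm16217, overlaps Lrp1, and Gm42633, a gene model still to be tested experimentally in the annotation, overlaps Scarb1 on the same strand, so part of the signal of those 2 genes could belong to their overlapping partners.

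The promoter windows of Cd36 and Marco are shown because these had the largest differences between genotypes among the members with a promoter entry. The table of RefSeq promoters (GRCm38.p6) held an entry for 5 of the 8 genes, and none for Lpl, Msr1 and Scarb1. Each window runs 5′ to 3′ on the strand of the gene, from 250 bases before the transcription start to 50 after it. Capitals mark the only matches, on either strand, to the motifs searched, which were AGGTCA (a nuclear receptor half-site, the unit that PPAR and LXR receptors bind in pairs), GAGGAA (a core bound by the macrophage factor PU.1) and TATAAA. The Cd36 window, at chr5:17835847-17836146 on the minus strand, lies inside the annotated gene, downstream of its most 5′ start, and holds TGACCT, the reverse complement of AGGTCA, from position -228, with the start site at 0. The Marco window, at chr1:120504975-120505274 on the minus strand, holds GAGGAA from position -146. Over 32851 RefSeq promoters of the mouse, 16.3% held AGGTCA, 28.3% GAGGAA and 13.6% TATAAA on either strand, so such matches are common.
Cd36: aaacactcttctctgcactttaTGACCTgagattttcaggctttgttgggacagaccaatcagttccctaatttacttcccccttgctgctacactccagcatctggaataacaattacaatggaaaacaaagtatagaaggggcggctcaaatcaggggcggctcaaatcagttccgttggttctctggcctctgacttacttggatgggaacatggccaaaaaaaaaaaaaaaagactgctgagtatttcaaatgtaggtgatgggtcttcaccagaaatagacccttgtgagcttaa
Marco: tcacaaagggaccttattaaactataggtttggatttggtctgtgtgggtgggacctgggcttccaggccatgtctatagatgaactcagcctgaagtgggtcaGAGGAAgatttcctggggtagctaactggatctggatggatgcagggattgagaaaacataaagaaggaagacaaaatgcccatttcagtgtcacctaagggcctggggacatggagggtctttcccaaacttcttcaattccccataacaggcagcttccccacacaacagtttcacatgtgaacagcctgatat

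Myelin was followed by higher Lpl, Cd36 and Msr1 and lower Scarb1 in E3, and by higher Lpl and Cd36 in E4. A gene is said to pass where its p from limma, adjusted by Benjamini-Hochberg over all 10952 tested genes, was under 0.05, and differences are on the log2(scaled TPM + 1) scale, which understates the change of low genes. In E3 this was 4 of the 6 tested members against 6.62% of all genes, and the median difference of the members was 0.35 beside -0.01 over all genes. In E4 it was 2 of 6 against 12.3% of all genes, with medians of 0.26 and -0.02. No member passed in WT (0 of 6, against 6.77% of all genes), Het (0 of 6, against 0.073%) or KO (0 of 6, against 2.41%), where 2246, 1075 and 1545 genes respectively had an unadjusted p under 0.05. Untreated and myelin libraries did not overlap for 3 of 6 members in E3 (17% of all genes), 2 of 6 in E4 (9.93%) and 1 of 6 in KO (5.79%). The member calls of E3 and E4 all ended in an unweighted fit that kept all 47 libraries, where the same differences had adjusted p of 0.135 to 0.437.

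The contrast of the myelin responses themselves separated E3 and E4 from WT for Msr1 and did not separate E4 from E3 for any gene. Msr1 was the single member of 6 that passed in E3 minus WT (3.6% of all genes passed) and in E4 minus WT (5.13%). In E4 minus E3, 0 of 10952 genes passed (0%) in limma, with 494 at an unadjusted p under 0.05 and 33 passing when libraries were weighted. In KO minus WT 0 of 6 members passed (3.93% of all genes, with 2354 at an unadjusted p under 0.05). The E3, E4 and KO contrasts with WT share the WT libraries.

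**Figure D2:**
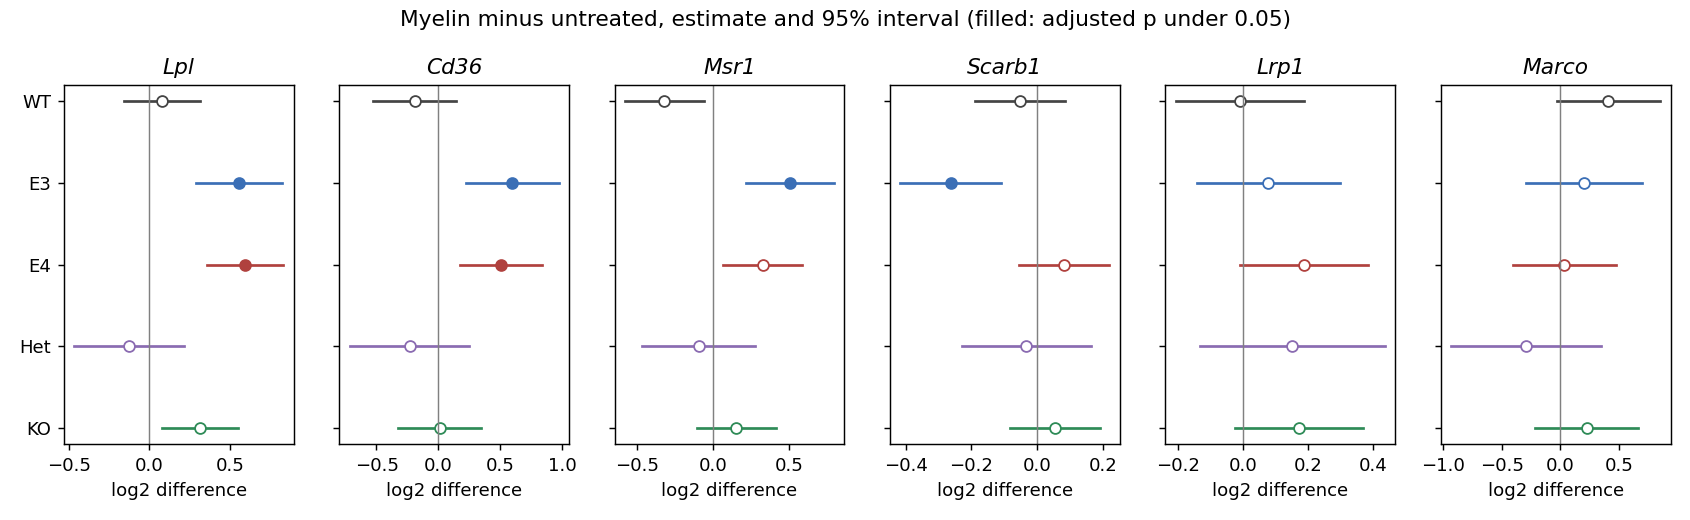
Myelin response of the 6 tested members in each genotype, as the log2 difference of myelin minus untreated (horizontal axis, log2(scaled TPM + 1)), with 95% intervals. Filled points passed the adjusted threshold. Lpl, Cd36 and Msr1 lie to the right of 0 in E3 and E4, and the wide Het intervals rest on 3 and 2 libraries.

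Lpl, the enzyme, rose with myelin in both humanised genotypes. In E3 it was at 466, 464, 687 and 571 scaled TPM untreated and at 827, 716, 926 and 725 after myelin. In E4 it was at 622, 811, 632, 726 and 749 untreated and at 985, 1187, 1129.8, 1047 and 986 after myelin. All myelin libraries lay above all untreated ones of the same genotype. The differences were 0.56 ± 0.13 (SE) in E3 (adjusted p = 0.00982) and 0.59 ± 0.12 in E4 (adjusted p = 0.000655). The E4 call held with each of the 10 E4 libraries left out in turn, whereas the E3 call ended without untreated replicate 2 (0.48, adjusted p = 0.0518) or myelin replicate 3 (0.48, adjusted p = 0.0726). Coding share was 11.1% to 16.6% in untreated E3 and 10.1% to 23.7% after myelin. In E4 it was 7.16% to 16.1% untreated and 16.0% to 24.3% after myelin, almost without overlap. The E3 library highest in coding share was also highest in Lpl in each condition, which was not so in E4. The part of coding share in the member responses was not tested.

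In WT, Lpl was at 655, 621, 523, 513 and 644 untreated and at 588, 788, 491, 633 and 639 after myelin, so the groups overlapped and the difference was 0.08 (adjusted p = 0.775). In KO it was at 2087, 2220.2, 2443, 2516 and 2101 untreated and at 2955, 3034, 2575, 2521 and 3069.8 after myelin. Every KO myelin library lay above every untreated one, yet the difference of 0.32 ± 0.12 did not pass (unadjusted p = 0.0103, adjusted p = 0.167). The Lpl response was 0.48 larger in E3 than in WT (adjusted p = 0.0992) and 0.52 larger in E4 than in WT (adjusted p = 0.0589), and neither contrast passed. Several single libraries moved these contrasts over the threshold: WT myelin replicate 2 or E3 untreated replicate 3 for the former, and WT untreated replicate 3, WT myelin replicate 2 or E4 untreated replicate 2 for the latter.

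Cd36, a class B scavenger receptor that also carries long-chain fatty acids, rose with myelin in E3 and E4 by amounts near the threshold. In E3 it was at 134, 115, 188 and 144 untreated and at 180.4, 216, 289 and 196 after myelin, with 1 untreated library above the lowest myelin value. In E4 it was at 95.7, 142, 112, 151 and 153 untreated and at 167, 183, 188, 219.6 and 162 after myelin, with no overlap. The differences were 0.60 ± 0.19 in E3 (adjusted p = 0.0439) and 0.51 ± 0.17 in E4 (adjusted p = 0.038). Both calls ended with any 1 of several libraries left out, in E3 also where the difference was no smaller than with all fitted libraries. The E3 call ended without untreated replicate 1, 2 or 4 or myelin replicate 2, 3 or 4 (0.46 to 0.65, adjusted p = 0.0508 to 0.23), and with the coding total alone, a minimum of 1 scaled TPM or none, no trend, or only the groups compared (adjusted p = 0.0511 to 0.0995). The E4 call ended without untreated replicate 1 or 3 or myelin replicate 2, 3 or 4 (0.40 to 0.51, adjusted p = 0.0585 to 0.149), with the coding total alone (adjusted p = 0.0603) and with no minimum (adjusted p = 0.0909).

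In WT, Cd36 was at 259.6, 258, 239, 251 and 290.0 untreated and at 186, 233, 171, 294 and 274 after myelin, a wider spread around a similar level. Its response was 0.79 larger in E3 than in WT (adjusted p = 0.0611) and 0.70 larger in E4 than in WT (adjusted p = 0.071), which did not pass. These 2 contrasts passed without WT myelin replicate 4 or 5, and the E3 one also without E3 untreated replicate 3 or E3 myelin replicate 1. In KO it was at 827, 755, 787, 935 and 707 untreated and at 827, 858, 784, 750.1 and 807 after myelin, and the groups overlapped.

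Msr1, the class A macrophage scavenger receptor, moved in opposite directions in WT and in E3 and E4, although only the E3 change passed by itself. In WT it was at 265, 299, 267, 309 and 329 untreated and at 236, 242, 164, 267 and 279.8 after myelin, so that the groups overlapped and the myelin libraries were mostly lower (-0.32 ± 0.13, adjusted p = 0.135). In E3 it was at 113, 128, 147 and 121 untreated and at 157, 175, 229 and 168 after myelin, with every myelin library higher (0.50 ± 0.14, adjusted p = 0.03). In E4 it was at 106, 179, 149, 141 and 149.6 untreated and at 157, 183, 194, 186 and 179.6 after myelin, with overlap (0.33 ± 0.13, adjusted p = 0.0852). The response differed from that of WT by 0.82 ± 0.19 in E3 (adjusted p = 0.0167) and by 0.65 ± 0.18 in E4 (adjusted p = 0.0306). In KO, at 222, 219, 234, 255 and 262 untreated and 291, 271, 254, 250.4 and 257 after myelin, the response exceeded that of WT by 0.47 (adjusted p = 0.118). Coding share in WT was 20.5% to 27.3% untreated and 13.05% to 24.8% after myelin, and it was higher after myelin in E4. The library highest in coding share was also highest in Msr1 in WT after myelin and in E3 in each condition. That was not so in untreated WT or in E4. The part of coding share in the Msr1 contrasts with WT was not tested.

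The Msr1 calls also changed with any 1 of several libraries left out, in some cases with a difference no smaller than with all fitted libraries. The E3 response did not pass without E3 untreated replicate 1, 2 or 4 or myelin replicate 3 (0.39 to 0.51, adjusted p = 0.0688 to 0.188), with the coding total alone (adjusted p = 0.0518) or with no minimum (adjusted p = 0.0666). The E4 response passed without untreated replicate 2 (0.41, adjusted p = 0.0471). The contrast of E3 with WT ended without E3 untreated replicate 1 or E3 myelin replicate 3 (0.71 to 0.77, adjusted p = 0.0576 to 0.0683). That of E4 with WT ended without WT untreated replicate 4 or 5, WT myelin replicate 1 or 3, E4 untreated replicate 1 or E4 myelin replicate 3 or 4 (0.52 to 0.65, adjusted p = 0.0537 to 0.0889), and with the coding total alone, no minimum or only the groups compared (adjusted p = 0.0533 to 0.0766). Neither contrast passed in the unweighted fit of all 47 libraries (adjusted p = 0.203 and 0.271).

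Scarb1, the class B receptor that exchanges cholesteryl esters with HDL, fell with myelin in E3. It was at 50.0, 44.0, 51.1 and 50.9 untreated and at 43.2, 37.6, 38.3 and 43.8 after myelin, with every myelin library below every untreated one by a small margin. It fell by 0.26 ± 0.08 on the log2 scale (adjusted p = 0.0314). This call ended without E3 untreated replicate 1, 3 or 4 or myelin replicate 2 or 3 (-0.25 to -0.23, adjusted p = 0.0694 to 0.148), with the coding total alone (adjusted p = 0.106) and with only the groups compared (adjusted p = 0.0932). In E4, at 35.9, 41.8, 39.8, 40.5 and 44.1 untreated and 42.9, 41.9, 41.2, 41.5 and 46.6 after myelin, the difference was 0.08 (adjusted p = 0.431). The response in E4 exceeded that in E3 by 0.35 ± 0.10, which had an unadjusted p of 0.00153 and an adjusted p of 0.73, so a difference between the humanised genotypes was not shown.

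Lrp1, the large endocytic receptor that binds apolipoprotein E and myelin debris, did not pass with myelin in any genotype. Its E3 libraries were at 156, 159, 166 and 177 untreated and at 199, 144, 182 and 174 after myelin (0.08, adjusted p = 0.68). Its E4 libraries were at 217, 181, 174, 164 and 174 untreated and at 191, 227, 212, 194 and 211 after myelin, higher in most but with overlap (0.19, adjusted p = 0.199). Marco, a class A receptor with a collagenous structure that is induced on activated macrophages, likewise did not pass. The largest Marco difference with myelin was 0.41 in WT (adjusted p = 0.29), from 22.3, 34.4, 22.2, 36.5 and 21.7 untreated to 24.0, 51.7, 28.6, 35.8 and 45.3 after myelin, with overlapping groups. In E4 it was at 8.12, 11.2, 11.5, 9.87 and 10.7 untreated and at 13.3, 9.95, 6.94, 10.2 and 13.2 after myelin.

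Markers of other cells moved with these responses. In E3 the summed level of the 10 fibroblast and pericyte markers was 346 to 516 untreated and 188 to 321 after myelin, although 0 of its 5 tested genes passed. The summed level of 8 endothelial markers in E3 was 40.8 to 44.3 untreated and 26.5 to 31.6 after myelin, with 2 of 4 tested genes lower. In E4 that sum was 20.3 to 25.9 untreated and 16.4 to 19.0 after myelin, with 3 of 4 lower. Astrocyte markers passed in neither, for 0 of 10 genes each. Of the 10 microglia markers 1 rose and 4 fell in E4. In WT, where the Msr1 values were mostly lower after myelin, the sum of the 8 border macrophage and monocyte markers was 1486 to 1954 untreated and 1282 to 1736 after myelin, with 2 of 3 tested genes lower. The part of these cells in the member responses was not tested.

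E4 differed from E3 in Marco, which was lower, and in Lpl, which was higher, in both conditions. Of the 6 tested members 3 passed untreated, against 17.8% of all genes, and 2 passed after myelin, against 11.7%. The median difference of the members was -0.01 untreated beside 0.03 over all genes, and 0.03 after myelin beside 0.01.

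Marco was at 16.3, 26.8, 23.7 and 26.6 in untreated E3 and at 22.7, 35.9, 24.1 and 24.8 after myelin. All E4 libraries, listed above, lay below all E3 libraries in both conditions. E4 and E3 libraries did not overlap for 16.9% of all genes untreated and for 12.2% after myelin. The Marco difference was -1.10 ± 0.23 untreated (adjusted p = 0.000651) and -1.26 ± 0.23 after myelin (adjusted p = 0.000173). The Lpl difference was 0.38 ± 0.12 untreated (adjusted p = 0.0266), where 1 E3 library lay among those of E4, and 0.42 ± 0.12 after myelin (adjusted p = 0.0199), with no overlap. The Lpl calls ended without E3 untreated replicate 1 or 2 or E4 untreated replicate 2 or 5 (0.31 to 0.36, adjusted p = 0.0608 to 0.124), and after myelin without E3 replicate 2 or 4 or E4 replicate 2 (0.37 to 0.38, adjusted p = 0.055 to 0.0895). In the unweighted fit of all 47 libraries the 2 Lpl differences had adjusted p of 0.387 and 0.419, and the untreated one also ended with the coding total alone, no minimum or only the groups compared (adjusted p = 0.0522 to 0.0663). Untreated Scarb1 was lower in E4 by 0.27 on the log2 scale (-0.27 ± 0.07, adjusted p = 0.00588) with overlapping groups, and it too ended in that fit (adjusted p = 0.272). After myelin the Scarb1 difference was 0.07 (adjusted p = 0.592).

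The untreated cultures of E3 and E4 also differed in markers of other cells. The summed level of 10 astrocyte markers was 985 to 1161 in E3 and 1832 to 3025 in E4, and that of the fibroblast and pericyte markers was 346 to 516 in E3 and 108 to 193 in E4. The part of these cells in the member differences was not tested.

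KO microglia held far more Lpl and Cd36 transcript than WT, with smaller gains in Lrp1 and Scarb1. Of the 6 tested members 5 passed in untreated cultures, 4 higher and 1 lower, and 4 passed after myelin, all higher. Most of the 10952 tested genes differed in this comparison (56.4% passed untreated and 54.8% after myelin), so the number of members that passed says little by itself. Of all tested genes 26.8% were higher untreated and 27.8% after myelin. The median difference of the members was 0.31 untreated beside -0.02 over all genes, and 0.46 after myelin beside 0.02.

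Lpl, at a mean of 591 ± 67.9 (SD, n = 5) scaled TPM in untreated WT and 2273 ± 197 (SD, n = 5) in KO, was 3.85-fold higher in KO (1.95 ± 0.12, adjusted p = 9.14e-17). After myelin the difference was 2.18 ± 0.12 (adjusted p = 5.78e-18). Cd36 rose from a mean of 259 ± 18.9 (SD, n = 5) to 802 ± 86.4 (SD, n = 5), a difference of 1.62 ± 0.17 (adjusted p = 7.8e-11), and by 1.82 ± 0.17 after myelin (adjusted p = 5.42e-12). No KO library of either gene overlapped a WT library in either condition. KO and WT libraries did not overlap for 45.8% of all genes untreated and for 36.9% after myelin. These shares also apply to the separations of Lrp1, Scarb1 and Msr1 below. Lpl and Cd36 had the 2 largest member differences from WT in KO.

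Lrp1 was at 163, 152, 146, 178 and 174 in untreated WT and at 239, 237, 232, 228 and 179.7 in KO. The lowest KO library lay just above the highest of WT, and the difference was 0.45 ± 0.10 (adjusted p = 0.000144). After myelin it was at 165, 149, 169, 157 and 169 in WT and 225, 246, 267, 206 and 324 in KO, with no overlap (0.63 ± 0.10, adjusted p = 7.64e-07). Scarb1 was at 51.0, 49.9, 50.8, 57.9 and 55.9 in untreated WT and 61.9, 60.3, 63.5, 63.3 and 52.9 in KO, overlapping through 1 KO library (0.18 ± 0.07, adjusted p = 0.0205). After myelin it was at 56.1, 46.8, 53.4, 51.8 and 48.1 in WT and 61.6, 62.1, 59.9, 61.9 and 67.8 in KO, with no overlap (0.29 ± 0.07, adjusted p = 0.000433). The untreated Scarb1 call ended without WT replicate 2 or KO replicate 3 or 4 (0.16, adjusted p = 0.0522 to 0.0574), and with the coding total alone (adjusted p = 0.0724). Both Scarb1 calls ended in the unweighted fit of all 47 libraries (adjusted p = 0.275 untreated and 0.0738 after myelin).

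Msr1 went the other way in untreated KO, where all 5 libraries lay below all 5 of WT (-0.30 ± 0.13, adjusted p = 0.0453). That call ended without WT replicate 2, 4 or 5 or KO replicate 1, 2 or 3 (-0.29 to -0.26, adjusted p = 0.0706 to 0.111) and in 5 alternatives: all 47 libraries unweighted, the coding total alone, a minimum of 1 scaled TPM or none, and no trend (adjusted p = 0.0511 to 0.147). After myelin the Msr1 difference was 0.17 (adjusted p = 0.255). Marco, at 29.8, 22.2, 23.2, 26.6 and 25.7 in untreated KO, overlapped WT (-0.07, adjusted p = 0.803).

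The library of KO untreated replicate 5 stood apart from its group in the fibroblast and pericyte sum, at 635 against 30.5 to 69.6 in the other 4, and it held the lowest Lrp1 and Scarb1 values of the group. Without it the untreated differences from WT were 0.52 for Lrp1 (adjusted p = 1.85e-05), 0.23 for Scarb1 (adjusted p = 0.00519) and -0.33 for Msr1 (adjusted p = 0.0375). In WT that sum was 688 to 1057, and the endothelial sum was 44.8 to 50.7 in WT and 14.2 to 19.8 in KO. The sum of the 10 microglia markers was 9972 to 11823 in WT and 15169 to 17712 in KO. Its largest part was Tyrobp, with means of 4999 in WT and 7963 in KO. Mean P2ry12 (7.24 and 3.16), Tmem119 (44.8 and 29.0) and Itgam (231 and 164) were lower in KO, and the other microglia markers were higher. The part of these other cells in the differences between KO and WT was not tested.

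Untreated Het microglia held more Lpl and more Marco than WT. Untreated Lpl was at 1405, 1775 and 1273 in the fitted Het libraries, between WT and KO with no overlap with either. Fitted Het and WT libraries did not overlap for 52.1% of all genes. In the 2 Het libraries left out Lpl was at 851 and 438, the latter below all WT libraries. The Lpl difference from WT was 1.32 ± 0.13 (adjusted p = 1.26e-10). Over the 5 untreated Het libraries Lpl, Cd36 and Msr1 all fell in the order of coding share, from 18.4% to 0.468%. The part of coding share in these Het levels was not tested. Marco was at 110.0, 79.2 and 60.9 in the fitted Het libraries and at 120.2 and 65.2 in those left out, all above every library of the other genotypes (1.57 ± 0.25, adjusted p = 1.6e-06). Msr1, at 171, 238 and 146, fell below WT (-0.69 ± 0.15, adjusted p = 0.00014), and Scarb1 fell by less (-0.25 ± 0.08, adjusted p = 0.00612). The Scarb1 call ended without Het replicate 4 (-0.20, adjusted p = 0.0657). Cd36, at 338, 418 and 243, overlapped WT (0.33, adjusted p = 0.146) and passed without Het replicate 4 (0.54, adjusted p = 0.0337). Its direction turned in the unweighted fit of all 47 libraries (-0.10, adjusted p = 0.746). In this comparison 4 of 6 members passed, against 56.4% of all genes. The fibroblast and pericyte sum was 25.6 to 83.7 in the fitted Het libraries and 688 to 1057 in WT, with 5 of 5 tested markers lower, and the astrocyte sum was 35.3 to 71.5 in Het and 131 to 157 in WT, with 6 of 10 lower. The microglia sum was 16293 to 16826 in Het and 9972 to 11823 in WT. Within it the means of P2ry12, Tmem119, Csf1r and Itgam were lower in Het, and those of the other microglia markers were higher. The part of these cells in the differences between Het and WT was not tested.

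KO and Het came from the same stock, and their comparison was added after results had been seen. It had 4 of 6 members past the test, against 11.2% of all genes. Cd36 was higher in KO by 1.30 ± 0.19 (adjusted p = 7.96e-06), Lpl by 0.62 ± 0.13 (adjusted p = 0.00182) and Scarb1 by 0.43 ± 0.08 (adjusted p = 0.000189). Marco was lower in KO (-1.64 ± 0.25, adjusted p = 1.47e-05). For each of Cd36, Lpl, Scarb1 and Marco the KO libraries and the 3 fitted Het libraries did not overlap, which held for 19.5% of all genes. Msr1 (0.39, adjusted p = 0.0788) passed without Het replicate 2 (0.59, adjusted p = 0.0158), and Lrp1 (0.32, adjusted p = 0.0562) passed without KO replicate 5 (0.40, adjusted p = 0.0177). With the coding total alone, which moved the median of all genes by 0.136 here, Msr1 (adjusted p = 0.023) and Lrp1 (adjusted p = 0.00467) passed as well. After myelin the 2 fitted Het libraries held Lpl at 1146 and 1588, Cd36 at 189 and 403 and Marco at 86.3 and 50.2, and those left out held Lpl at 1329 and 568. Coding share was 16.4% to 24.9% in untreated KO and 11.5% to 18.4% in the fitted untreated Het libraries. The part of coding share in the differences between KO and Het was not tested.

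Untreated E3 and E4 microglia held less Msr1 and Cd36 than untreated WT. In these cultures 2 of 6 members passed in E3, both lower, against 55.1% of all genes, of which 28.6% of all genes were lower. In E4 4 of 6 passed, all lower, against 63.7% of all genes, with 32.8% lower. Msr1 was lower by 1.20 on the log2 scale in E3 (-1.20 ± 0.14, adjusted p = 2.48e-09) and by 1.03 in E4 (-1.03 ± 0.13, adjusted p = 9.86e-09). Cd36 differed by -0.85 ± 0.18 in E3 (adjusted p = 9.92e-05) and by -1.01 ± 0.17 in E4 (adjusted p = 2.13e-06). For both genes all untreated E3 and E4 libraries lay below all untreated WT libraries. Untreated libraries did not overlap for 47.8% of all genes between E3 and WT and for 47.7% between E4 and WT. After myelin, where E3 and E4 were not tested against WT, their libraries overlapped those of WT for both genes. Both comparisons use the same WT libraries.

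Marco and Scarb1 were also lower in untreated E4. Marco was lower than WT in E4 (-1.31 ± 0.22, adjusted p = 2.48e-06), with no overlap, and overlapped WT in E3 (-0.21, adjusted p = 0.453). Scarb1 was lower in E4 (-0.39 ± 0.07, adjusted p = 5.83e-06), again with no overlap. Lrp1 overlapped WT in E3 (0.02, adjusted p = 0.895) and E4 (0.16, adjusted p = 0.156). Lpl did not pass in E3 (-0.12, adjusted p = 0.409) or in E4 (0.26 ± 0.12, adjusted p = 0.0504), but the E4 difference passed without WT replicate 1 or 5 or E4 replicate 1 or 3 (0.29 to 0.30, adjusted p = 0.0325 to 0.0409). The astrocyte sum was 131 to 157 in untreated WT, below the E3 and E4 sums above. The border macrophage and monocyte sum was 1486 to 1954 in WT, 1046 to 1356 in E3 and 1060 to 1495 in E4, and Mrc1, a marker in that list, had means of 27.1, 3.93 and 4.50. The part of these cells in the lower Msr1 and Cd36 of E3 and E4 was not tested.

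**Figure D3:**
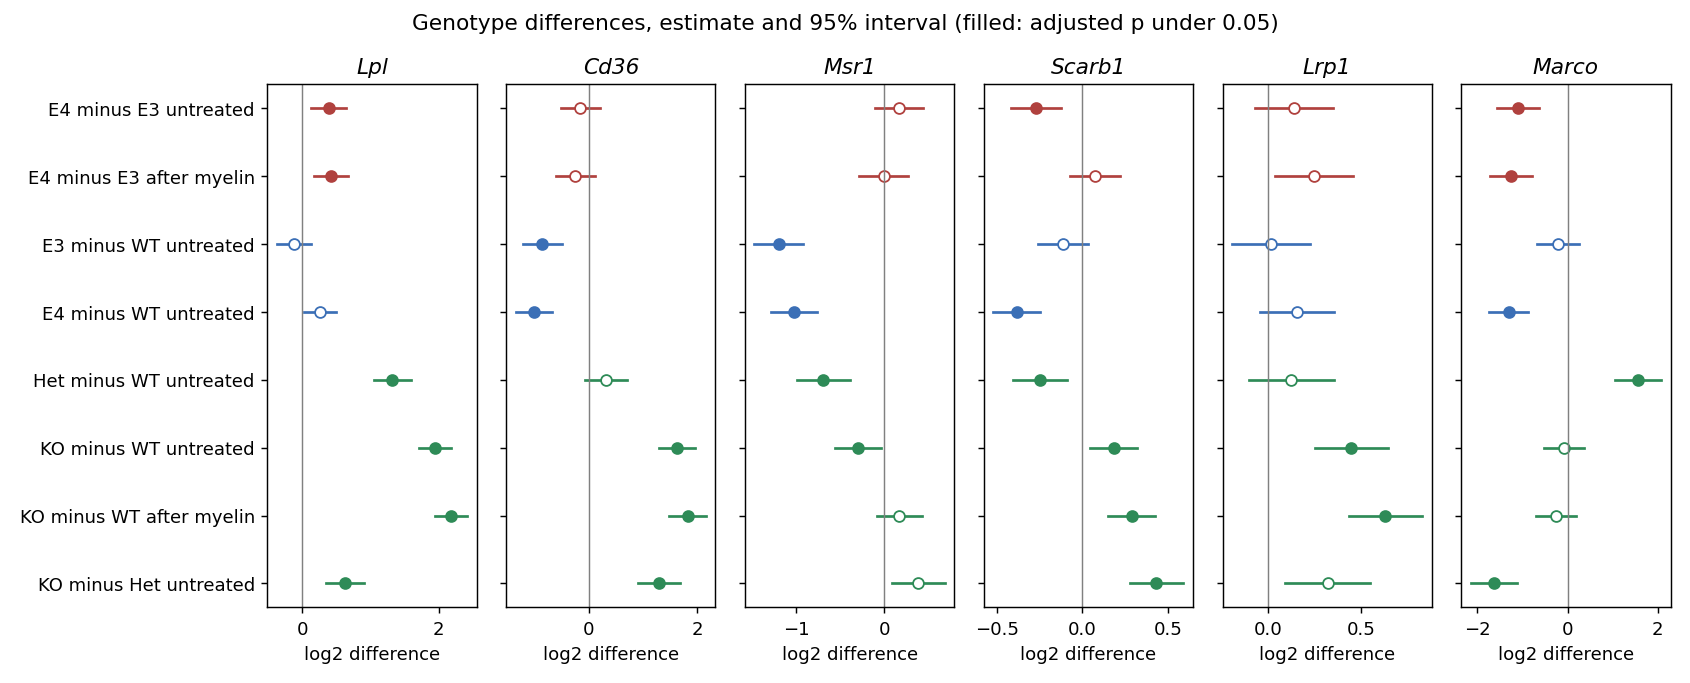
Differences between genotypes for the 6 tested members on the log2(scaled TPM + 1) scale (horizontal axis), with 95% intervals, in the 8 genotype comparisons. Filled points passed the adjusted threshold. Lpl and Cd36 lie far to the right of 0 in KO against WT, Marco lies to the left in E4 against E3, and Msr1 and Cd36 lie to the left in E3 and E4 against WT.

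The low receptors gave few results. Vldlr, the VLDL receptor, and Olr1, the lectin-like receptor for oxidised LDL, entered the test when the minimum was set at 1 scaled TPM, which left 15905 genes. Vldlr was then lower in KO than in WT after myelin (-0.92 ± 0.17, adjusted p = 2.36e-05, 43.7% of all genes passing), with KO libraries at 0.317 to 0.749 and WT at 0.672 to 3.30. In untreated cultures Vldlr was higher in E4 than in WT (0.57 ± 0.17, adjusted p = 0.00505, 55.4% passing) and lower in Het than in WT (-0.62 ± 0.20, adjusted p = 0.00863, 49.1% passing), although the 2 Het libraries left out of the fit lay above all 5 untreated WT libraries. Olr1 was lower in untreated KO than in WT (-1.03 ± 0.33, adjusted p = 0.00944, 45.5% passing) and than in Het (-1.52 ± 0.38, adjusted p = 0.00841, 9.07% passing), with KO at 0.0986 to 1.37 and WT at 1.10 to 4.30. Read counts at such levels are unknown, so these values are the least certain of the 8 genes.

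The wider pathway was followed in 5 lists, of which 16 of 25 genes of the lipase system, 10 of 18 other scavenger receptors, 14 of 19 other LDL receptor family genes and adaptors, 12 of 18 genes of fatty acid uptake and binding, and 17 of 18 regulators were tested. Over all tested genes, 4.04% rose and 2.58% fell with myelin in E3, 6.89% rose and 5.39% fell in E4, and 5.7% rose and 1.07% fell in WT. Among the fatty acid genes, 5 rose and 1 fell of 12 in E3. These included Fabp4, a fatty acid binding protein (0.88), and Plin2, a lipid droplet coat protein (0.42), while the fatty acid receptor Gpr84 fell (-0.50). The list's median was 0.32 beside -0.01 over all genes. In E4 it again had 5 higher and 1 lower, with Fabp4 at 1.01 (adjusted p = 8.63e-07), Fabp5 at 0.45, Plin2 at 0.43 and Gpr84 at -0.71, and a median of 0.21 beside -0.02.

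Among the LDL receptor family genes and adaptors, Mylip, a ubiquitin ligase that marks lipoprotein receptors for degradation, rose with myelin in E3 (0.86, adjusted p = 1.46e-06) and E4 (0.82, adjusted p = 6.57e-08). The list as a whole had 1 higher and 1 lower of 14 in E3 and 4 higher and 1 lower in E4, with medians of -0.02 and 0.09. Of the 10 other scavenger receptors, 3 rose in E3, among them Cd68 (0.41) and Lgals3 (0.42), and in E4 3 rose and 2 fell, with Lgals3 at 0.64, Cd68 at 0.61 and Cd14 at -0.75. The medians of that list were 0.26 in E3 and 0.15 in E4. In the lipase system Lipa, the lysosomal acid lipase, rose in E3 (0.32) and E4 (0.38) and Hspg2, a heparan sulfate proteoglycan, fell (-0.63 and -0.54). That list had 1 gene up and 1 down of 16 in E3 and 1 up and 3 down in E4, with medians of -0.06 and 0.02.

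Among the 17 regulators 2 rose and 1 fell with myelin in E3 and 2 rose and 2 fell in E4, with medians of 0.05 and -0.06. Pparg, the nuclear receptor that controls lipid uptake in macrophages and fat cells, rose in both (0.54 in E3, adjusted p = 0.0258, and 0.40 in E4, adjusted p = 0.0428). Srebf2, which drives sterol synthesis, fell in both (-0.32 and -0.57). In WT the list genes that passed with myelin were 0 of 16 in the lipase system, Mrc1 of the 10 other scavenger receptors (-0.39), Lrp10 of the 14 LDL receptor family genes (0.84), Slc27a4, a fatty acid transport protein, of the 12 fatty acid genes (0.74), and Tfeb (0.42) and Rxrb (0.39) of the 17 regulators. Mean Pparg was also higher after myelin in WT (4.51 to 6.37 scaled TPM) and KO (31.0 to 38.4), without passing. The Pparg response of E3 or E4 did not pass against that of WT.

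Between KO and WT in untreated cultures, 26.8% of all tested genes were higher and 29.7% lower. Of the regulators 12 were higher and 1 lower of 17, with a median of 0.51 beside -0.02 over all genes. Pparg was higher by 2.54 (adjusted p = 3.65e-18) and Cebpa, a factor of myeloid and fat cells, by 2.74. Of the LDL receptor family 9 were higher and 1 lower of 14 (Lrp10 at 2.22, Lrp5 at 1.02), of the other scavenger receptors 6 higher and 1 lower of 10 (Lgals3 at 0.92, Cd68 at 0.89), and of the fatty acid genes 7 higher and 3 lower of 12 (Fabp4 at 0.65). The lipase system had 5 higher and 7 lower of 16 and a median of -0.19. Lower genes there were Sdc2 (-2.75), Sdc1 (-2.63) and Hspg2 (-2.62), which carry heparan sulfate, and Apoc2 (-2.65), the cofactor of lipoprotein lipase, whose gene lies near Apoe. Several of these differences were shared by Het. In untreated Het against WT, Sdc2 (-3.20), Hspg2 (-2.52) and Sdc1 (-2.34) were lower, and Cebpa (2.47) and Pparg (1.52) were higher. In KO against Het, the comparison within 1 stock, Apoc2 (-2.31) and Apoc1 (-1.77) were also lower and Pparg was higher by 1.03. Between E4 and E3 untreated, 8 of 17 regulators were higher and 0 lower, where 9.23% of all tested genes were higher and 8.53% lower, with a median of 0.32 beside 0.03, among them Nr1h3, which encodes LXRα (0.61), and Pparg (0.43).

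Pparg was also the gene whose log2 levels followed those of Lpl most closely over the 43 fitted libraries, with a Pearson r of 0.97, given as a description since the libraries share genotype groups and culture composition. Mean Pparg in untreated cultures was 4.51 scaled TPM for WT, 4.90 for E3, 6.98 for E4, 13.7 for Het and 31.0 for KO, and after myelin it was 6.37, 7.65, 9.50, 18.0 and 38.4. Within the 28 libraries of WT, E3 and E4 the r was 0.81. Sirpa, an inhibitory receptor of macrophages, and Lipa followed Lpl with an r of 0.96 each over 43 libraries and 0.83 each over 28.

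**Figure D4:**
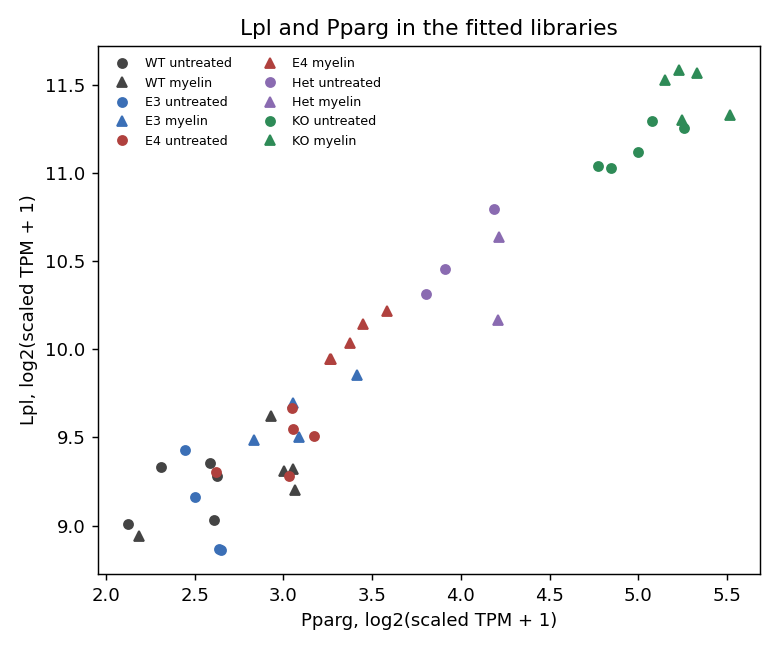
Log2 level of Lpl (vertical axis) against that of Pparg (horizontal axis), both as log2(scaled TPM + 1), in each of the 43 fitted libraries, marked by genotype and treatment. The points run from WT and E3 at the lower left through E4 and Het to KO at the upper right.

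For the other members the closest genes over 43 libraries were Slc37a2 (0.97), Adgre1 (0.96), which encodes the macrophage protein F4/80, and Evi2b (0.96) for Cd36, and Kdm6a, Cept1 and Capza1 (0.92 each) for Msr1. Scarb1 was followed by Gsn (0.89), Apobr (0.88) and Tor4a (0.84), Lrp1 by Dennd4b (0.85), Adcy3 (0.83) and Dgkd (0.82), and Marco by Gm20186 (0.83), Mid1 (0.81) and Anxa3 (0.80). Among the members themselves, Lpl and Cd36 had the highest r, at 0.87, followed by Lpl with Lrp1 (0.76) and Cd36 with Scarb1 (0.76). Marco and Lrp1 had the lowest, at -0.14.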

How the data were processed

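Per the labels' protocols, polyadenylated RNA of each culture was amplified with a kit for small inputs. The authors deposited a single matrix of TPM (53697 genes by 47 libraries), and its columns were matched to samples by name. The submitters' processing notes name Salmon 0.13.1, limma 3.40.6 and mm10, without their roles. Depth is unknown, since TPM do not keep it, and intervals cover only the spread between libraries.

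Nuclear protein-coding genes were rescaled to 1000000 per library, and a trimmed-mean factor (30% of ratios and 5% of levels trimmed) was applied. The test covered genes that reached 5 scaled TPM in 4 or more libraries, 10632 of them coding and 320 lincRNA. limma 3.58.1 (R 4.3.3, with version 1.17.8 of the package data.table) was fitted to log2(scaled TPM + 1), with 1 mean for each of 10 groups, a trend and no weights, on 43 libraries. Tests were two-sided, with Benjamini-Hochberg adjustment over all tested genes of a comparison at 0.05. The steps were tested on simulated data. Since the values were TPM, no count model was used.

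The 8 genes, the lists and the design were chosen with earlier results of these data known. The text names every member, at most 4 genes of each list that passed with the largest absolute differences, and the 3 genes most correlated with each member. Of the identifiers, 52806 had the same version in the GENCODE M21 annotation of mm10. Alternatives were library weights, all 47 libraries, the coding total alone, a pseudocount of 0.25, minimums of 1 and of none, no trend, a replicate block and each library left out. The fit of only the groups compared, and KO against Het, were added after seeing the data. Some genes of the lists are not reported here.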

Additional observations from a re-analysis of the deposited data

Results flagged for a closer look

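Of the 80 combinations of a member and a group, 4 held a library far from the others of its group, and chance flags about 1 in 20 groups. Scarb1 in E3 untreated replicate 2 was at 44.0 scaled TPM, below 50.0 to 51.1 in the others. Scarb1 in KO myelin replicate 5 was at 67.8, above 59.9 to 62.1. Lrp1 in KO untreated replicate 5 was at 179.7, below 228 to 239, and this is the library with the high fibroblast and pericyte sum. Marco in E3 myelin replicate 2 was at 35.9, above 22.7 to 24.8.

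The myelin response of Msr1 differed from that of WT, by 0.82 in E3 and by 0.65 in E4 on the log2 scale, in the limma test of the difference itself. Both differences share the WT libraries, and their values with single libraries left out are given in the report. The part of coding share in these differences was not tested.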

How the results depend on the processing

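Of 102 member differences (6 members in 17 comparisons), all 102 kept direction and side of the threshold with a pseudocount of 0.25 and with a replicate block, 100 with a minimum of 1 scaled TPM and without the trend, 97 with only the groups compared, 96 with no minimum, 91 with the coding total alone, 88 with library weights and 85 with all 47 libraries and no weights. Directions that turned had passed in neither fit: with weights Lrp1 in WT myelin (0.013), Marco in E4 myelin (-0.11), Msr1 in E4 against E3 after myelin (0.071) and Marco in KO minus WT response (0.018); with all 47 libraries and no weights Lpl in Het myelin (0.066) and Cd36 in Het against WT (-0.10); with the coding total alone Lrp1 in Het against WT (-0.025).

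Members that passed, in the order of E3 myelin, E4 myelin, E4 against E3 untreated, the same after myelin, KO against WT untreated, and the E3 and E4 responses minus that of WT, were 4, 2, 3, 2, 5, 1 and 1. With all 47 libraries and no weights they were 0, 0, 1, 1, 3, 0 and 0. With the coding total alone E3 myelin had 1, E4 myelin 1, KO against WT untreated 3 and E4 minus WT response 0. With no minimum E3 myelin had 2, E4 myelin 1 and E4 minus WT response 0. With weights E4 myelin had 4, E3 minus WT response 2, E4 minus WT response 3 and KO minus WT response 1. With only the groups compared E3 myelin had 2 and E4 minus WT response 0. With each library left out in turn the ranges were 0 to 4 in E3 myelin, 1 to 3 in E4 myelin, 1 to 2 in E4 against E3 after myelin, 3 to 5 in KO against WT untreated, 0 to 3 in E3 minus WT response and 0 to 2 in E4 minus WT response. Where a library left out turned a direction, none of the differences had passed: Lpl -0.0084 to 0.16 and Lrp1 -0.046 to 0.024 in WT myelin; Marco -0.047 to 0.17 in E4 myelin; Lpl -0.36 to 0.11, Cd36 -0.78 to 0.31, Msr1 -0.31 to 0.12, Scarb1 -0.089 to 0.044, Lrp1 -0.028 to 0.33 and Marco -0.68 to 0.092 in Het myelin; Cd36 -0.034 to 0.067 in KO myelin; Msr1 -0.071 to 0.11 in E4 against E3 after myelin; Marco -0.14 to 0.038 in KO against WT untreated; Lrp1 -0.019 to 0.051 in E3 against WT; Lpl -0.078 to 0.11 and Cd36 -0.22 to 0.047 in E4 minus E3 response. The cause of these changes was not tested, beyond the fewer libraries fitted when one is left out.

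Genes that passed over the whole table moved by more than 1.5 times as follows. The 741 of WT myelin became 393 with all 47 libraries and no weights and 0 with only the groups compared. The 725 of E3 myelin became 1968 with weights, 80 with all 47 unweighted and 410 with no minimum, the 1345 of E4 myelin 2470 and 390 in the first 2 of these, and the 264 of KO myelin 601 and 24. The 8 of Het myelin became 422, 300, 21 with the coding total alone, 30 with a minimum of 1, 677 with none and 0 with only the groups compared. With all 47 unweighted, E4 against E3 went from 1945 to 808 untreated and from 1281 to 530 after myelin (3032 with weights), and KO against Het from 1222 to 3746 (2107 with the coding total, 2060 with no minimum). Het against WT went from 6180 to 9831 with no minimum. With weights, all 47 unweighted, no minimum and only the groups compared, in that order, the 394 of E3 minus WT response became 1143, 3, 148 and 185 (161 with the coding total), the 562 of E4 minus WT response 1041, 15, 252 and 281, and the 430 of KO minus WT response 1219, 2, 115 and 222 (147 with the coding total, 285 with a minimum of 1). With 1 library left out, the lowest counts were 346 in WT myelin (without WT untreated replicate 4), 127 in E3 myelin and 74 in E3 minus WT response (both without E3 myelin replicate 3), 815 in E4 myelin and 237 in E4 minus WT response (both without E4 untreated replicate 1), 147 in KO myelin (without KO myelin replicate 5), 144 in KO minus WT response (without WT myelin replicate 1), and 1 in Het myelin and 586 in KO against Het (both without Het untreated replicate 4). The highest were 233 in Het myelin (without Het myelin replicate 4), 827 in E3 minus WT response (without WT myelin replicate 5) and 848 in KO minus WT response (without WT myelin replicate 2). The coding total alone, in the comparisons with Het, moved the median of all genes by -0.145 (Het against WT) and 0.136 (KO against Het), and the share of higher calls from 47.2% to 34.0% and from 57.4% to 86.6%, and in Het myelin from 25.0% to 14.3%. Correlations of same-numbered deviations ran from -0.20 to 0.45, the highest for E4 replicate 4, and do not settle whether replicate numbers pair the libraries. The replicate block used the same number across all genotypes, so it does not test pairing within a genotype. It gave 734 genes in E3 myelin and 1431 in E4 myelin and changed no member call.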
